A study of Mus musculus with 12 samples.

Results

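Skin from mice with a transferred, T cell driven form of cutaneous lupus erythematosus (CLE) was compared between 2 genotypes, 4 Merkel het CLE mice and 4 CLE mice. These 8 libraries are all those of the 12 in the series whose group label is Merkel het CLE or CLE, and all 561 gene probes of the panel were considered; 451 of them were tested. The other 4 libraries are littermates without skin disease, used here for the spread between mice and as a reference level. Every recipient was female and had received OT2 cells, CD4 T cells whose transgenic receptor recognises a peptide of ovalbumin. The cells had been cultured for 10 days towards the T helper 2 (Th2) state before transfer. Frozen skin was taken when disease first appeared, at about 3 to 4 weeks, and RNA was read on a NanoString mouse immunology panel, in which a barcoded probe for each transcript is counted directly.

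The CLE mice carried rtTA and K5TGO, the pair of transgenes that lets the skin express the autoantigen, and both copies of TLR9 were knocked out. They came from the parental strain, and no Merkel cell genotype is given for them. The Merkel het CLE mice carried the same pair of transgenes together with 1 floxed copy of Atoh1 and K14Cre. Their TLR9 label is wild type on both alleles in mice 1 and 2 and knocked out on both alleles in mice 3 and 4. K14Cre acts in keratin 14-expressing epidermal cells, and 1 intact Atoh1 copy remains. The labels do not state how many Merkel cells were left. The littermates lacked rtTA, K5TGO or both; 3 were TLR9 ko/ko and 1 was ko/wt, and 2 carried K14Cre. The labelled severity of skin disease was 2.5, 1, 1 and 3 for the CLE mice, in replicate order, and 3, 2, 2 and 2.5 for the Merkel het CLE mice. Wherever 4 values of a group are listed they follow the replicate order 1 to 4. Strain, K14Cre, the Atoh1 allele and, in part, the TLR9 alleles differ together between the groups and cannot be told apart. CLE mice 3 and 4 share a title number, as do Merkel het CLE mice 1 and 2, whose number also stands in the titles of littermates 1 and 2; its meaning is not stated in the labels.

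Merkel cells are touch-sensing cells at the base of the epidermis, and Atoh1 is the transcription factor that specifies them. In lupus skin, interferons act through JAK kinases and STAT factors to switch on chemokines that draw T cells, and the proteins that cut, transport and display peptides on MHC class I. Cytotoxic T cells and natural killer (NK) cells read such peptides or their absence and kill through perforin and granzymes. Neutrophils are drawn by a separate set of chemokines and cross vessel walls through endothelial selectins.

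The deposited signal, called units here, is a whole barcode count multiplied by 1 factor per lane, and the factors set the precision. They were 0.715 to 0.979 in Merkel het CLE and 1.16 to 5.56 in CLE, with no overlap (exact permutation test, two-sided, p = 0.0286, the smallest that 4 against 4 can give; 0.189 after Benjamini-Hochberg adjustment over 11 lane measures). Gene counts ran from 335693 to 682046 per library in Merkel het CLE, from 134994 to 452164 in CLE and from 99297 to 422137 in littermates. The mean of the negative control probes, scaled like the genes, was 62.6, 27.5, 19.4 and 11.02 units across the CLE mice and 9.66 to 15.2 units in Merkel het CLE. A probe at background thus reads higher in CLE mice 1 and 2. Of the 98 probes below background, 95 had negative differences, with a median of -0.89. The 12 reference genes of the panel had differences from -0.32 to 0.40 with a median of 0.04. The 451 tested genes had a median difference of -0.26, and 311 of them, or 69%, lay below 0. This median depends on the scaling: it was -0.12 after median centring, -0.01 after quantile normalization and 1.45 when the lanes were scaled on the positive control probes. Medians of gene lists are therefore also given relative to the median of all tested genes.

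Perforin, the pore-forming protein of cytotoxic cells, was the 1 gene that passed the test. Prf1 read 33.4, 32.1, 40.5 and 33.6 units across the CLE mice and 7.15, 13.7, 4.30 and 10.1 units across the Merkel het CLE mice. The 2 groups did not overlap, and the littermates, at 27.6, 40.4, 38.5 and 24.2 units, lay with the CLE mice. The measured log2 difference was -1.97 ± 0.33 (SE; limma, adjusted p = 0.0261). Its values are small: the background threshold stood at 106, 53.2, 33.8 and 21.6 units across the CLE mice and between 19.5 and 28.0 units in Merkel het CLE mice. Only CLE mice 3 and 4, and 3 littermates, exceeded it, and none of the 4 Merkel het CLE mice did. The Merkel het CLE level is therefore only a bound. With each library there set at its own threshold, the CLE mean of Prf1 was 1.56-fold higher. This is not a minimum fold, because CLE mice 1 and 2 stand in that mean at values below their own thresholds. Without CLE mice 1 and 2 the difference was -2.05 with an adjusted p of 0.0632. In the 8 diseased libraries alone, without the littermate spread, the adjusted limma p was 0.0805. Prf1 passed in 10 of 26 alternatives other than scaling on the positive controls (adjusted p from 0.0112 to 0.335). In whole skin, fewer cytotoxic cells and less Prf1 RNA per cell cannot be told apart, and transferred and host T cells were measured together.

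By limma at an adjusted p under 0.05, 1 of the 451 genes was lower (0.222%) and 0 were higher (0%). At an unadjusted p under 0.05, 75 genes were lower (16.6%) and 12 were higher (2.66%). At an adjusted p under 0.1, 18 genes were lower (3.99%). The value ranges of the groups did not overlap in 35 genes that were lower (7.76%) and in 1 that was higher (0.222%), the death-promoting gene Bax. In the following text only Prf1 passed, and the other genes are given by their values. Counts within gene lists are to be read beside these shares and the 69% of all tested genes below 0. A list count near the share of the panel says nothing about that list.

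**Figure D1:**
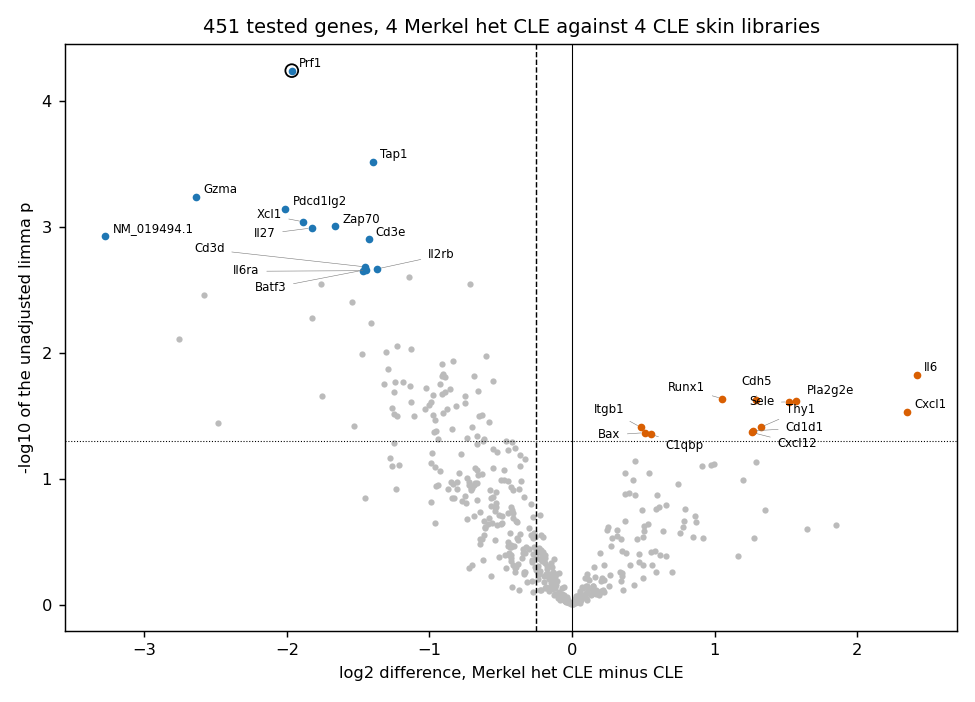
Each point is 1 of 451 tested genes, with the log2 difference (Merkel het CLE minus CLE) on the horizontal axis and -log10 of the unadjusted limma p on the vertical axis. Prf1 is circled; the named lower genes are blue and the 12 named higher genes orange, the dashed line is the median of all genes at -0.26, and the dotted line is an unadjusted p of 0.05. Points below 0 outnumber those above it, 311 of 451.

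Granzyme A, a protease delivered through perforin pores, had a larger difference than Prf1 with a wider spread. Gzma read 323, 193, 57.3 and 285 units across the CLE mice and 24.3, 45.03, 35.2 and 15.6 units across the Merkel het CLE mice. The groups did not overlap, and CLE mouse 3 was the lowest of its group; the log2 difference was -2.64 ± 0.57 (adjusted p = 0.063). Xcl1, a chemokine released by activated T and NK cells, read 161, 111, 101 and 155 units across the CLE mice and 20.03, 75.4, 27.5 and 32.9 units across the Merkel het CLE mice. These ranges did not overlap either, all 8 libraries were above background, and the difference was -1.89 ± 0.43 (adjusted p = 0.063). Il2rb, the receptor chain through which NK cells and memory T cells sense interleukin-2 and interleukin-15, read 284, 390.1, 148 and 324 units across the CLE mice and 96.6, 156, 113 and 69.5 units across the Merkel het CLE mice. Here CLE mouse 3 and Merkel het CLE mouse 2 overlapped, and the difference was -1.36 ± 0.35. Cd244a, an NK cell receptor, ran from 103 to 211 units in CLE and from 34.8 to 125 units in Merkel het CLE, a difference of -1.29 ± 0.45.

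Of 22 cytotoxic and NK cell genes measured, 13 were tested. All 13 had negative differences, 1 (Prf1) passed, 8 had an unadjusted p under 0.05 and 4 had groups without overlap. Their median difference was -1.27, or -1.02 relative to all genes, against -0.26 for the panel. The summed level of the 13 genes was 749 to 1829 units in CLE, 407 to 744 units in Merkel het CLE and 531 to 1140 units in littermates. Such sums include scaled background for every member. Its mean per probe was 62.6 and 27.5 units in CLE mice 1 and 2, against 9.66 to 15.2 units in Merkel het CLE. The part of background in the gap between the groups was not tested. The median turned positive in no alternative other than scaling on the positive controls, where it was 0.42, still 1.03 below that of all genes. The 4 members above background in all 8 libraries had a median of -1.33. Without CLE mice 1 and 2, the libraries with the most scaled background, the median of the 13 was -0.78.

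**Figure D2:**
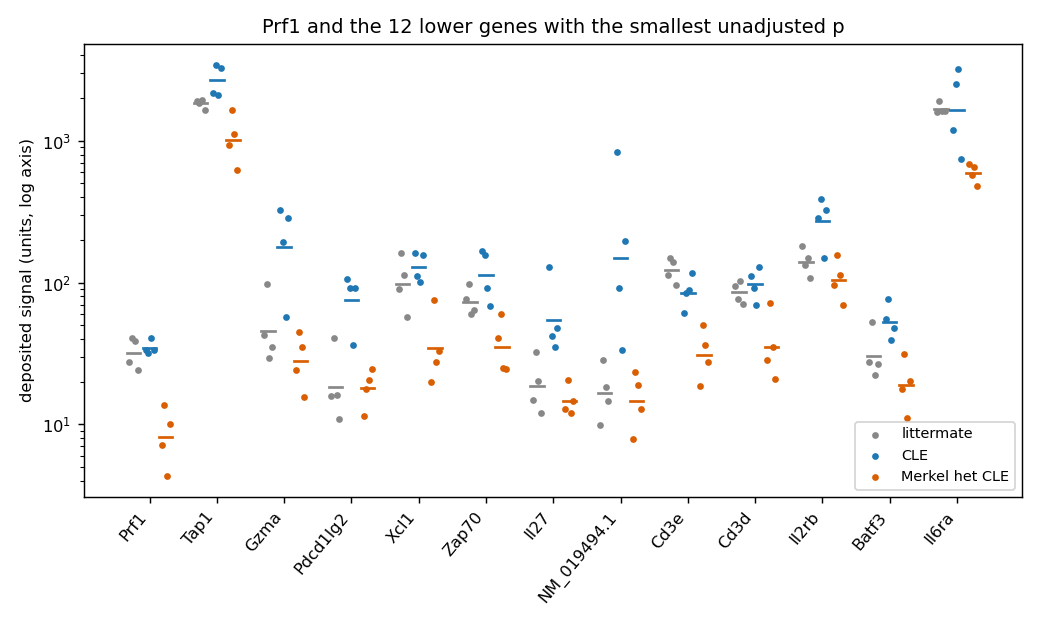
Deposited signal in units on a log axis for Prf1 and the 12 lower genes with the smallest unadjusted p, with 1 point per library and a line at the group mean of log2 values (littermate grey, CLE blue, Merkel het CLE orange, 4 libraries each). The Merkel het CLE points of Prf1, from 4.30 to 13.7 units, lie below all 4 CLE points; those of Cd3d and Il2rb overlap the CLE points.

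Of the 11 tested genes of antigen display on MHC class I, 8 had negative differences, near the 69% of all tested genes. At an unadjusted p under 0.05, 6 of the 11 were lower, beside 16.6% of all tested genes, and none passed. The median was -0.66, or -0.41 relative to all genes, and -0.02 after quantile normalization. Tap1, a subunit of the transporter that carries peptides into the endoplasmic reticulum, read 2174, 3449, 2117 and 3253 units across the CLE mice and 931, 1661, 1110.1 and 627 units across the Merkel het CLE mice. The diseased groups did not overlap; littermates read 1661 to 1955 units, below every CLE mouse, and only Merkel het CLE mouse 2 reached their range. The difference was -1.40 ± 0.28 with an adjusted p of 0.063, and all 12 libraries were above background. Psmb9, the immunoproteasome subunit encoded beside Tap1, read 662, 1355, 349 and 1281 units across the CLE mice and 239, 628, 324 and 136 units across the Merkel het CLE mice. CLE mouse 3 lay within the Merkel het CLE range, and the difference was -1.48 ± 0.49 (adjusted p = 0.184). B2m, the invariant light chain of MHC class I, read 60769, 101821, 53654 and 89936 units across the CLE mice and 42794, 49377, 51482 and 21888 units across the Merkel het CLE mice. All 4 CLE mice exceeded all 4 Merkel het CLE mice, by -0.91 ± 0.31 on the log2 scale, although quantile normalization turned the B2m difference to 0.73. Tapbp, which links the transporter to MHC class I, read 1446, 2153, 881 and 2290.3 units across the CLE mice and 904, 1013, 1110.1 and 523 units across the Merkel het CLE mice, with a difference of -0.89 ± 0.32.

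Genes of the interferon-gamma response were widely spread within CLE. Irf1, a transcription factor induced early by interferon-gamma, read 2469, 1950.3, 663 and 2946 units across the CLE mice and 697, 852, 648 and 337 units across the Merkel het CLE mice. Merkel het CLE mice sat near the littermate range of 579 to 968 units, and so did CLE mouse 3; the difference was -1.54 ± 0.43 (adjusted p = 0.0995). Cxcl10, a chemokine that attracts CXCR3-bearing T cells, read 2569, 2439, 131 and 3833 units across the CLE mice and 145, 302, 301 and 113 units across the Merkel het CLE mice. CLE mice 1, 2 and 4 stood above every Merkel het CLE mouse, and CLE mouse 3 lay among them, so that the difference was -2.76 ± 0.87 with an adjusted p of 0.167. Cd274 (PD-L1), an inhibitory ligand, read 873, 597, 149 and 630.0 units across the CLE mice and 205, 247, 213 and 144 units across the Merkel het CLE mice, again with CLE mouse 3 low and a difference of -1.24 ± 0.45. Nos2, the inducible nitric oxide synthase, read 423, 98.8, 43.3 and 67.3 units across the CLE mice and 33.6, 31.3, 21.5 and 38.4 units across the Merkel het CLE mice, without overlap and with a difference of -1.75 ± 0.67. The transcript NM_019494.1, which has no symbol in the reference used, read 829, 91.3, 33.5 and 196 units across the CLE mice and 7.87, 23.5, 18.9 and 12.8 units across the Merkel het CLE mice. CLE mouse 1 set the upper end; 3 CLE libraries, 1 littermate and no Merkel het CLE library were above background, so that the gene was tested chiefly through the group where it is high. With the Merkel het CLE libraries set at their thresholds, the CLE mean of this transcript was 6.57-fold higher. That mean includes CLE mouse 3 at a value just below its own threshold. The measured log2 difference was -3.27 (limma, adjusted p = 0.063) and moved to -2.45 without CLE mouse 1.

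Of 12 tested interferon-gamma genes, 11 had negative differences, 6 with an unadjusted p under 0.05, and none passed. The median was -0.84, or -0.58 relative to all genes, and leaving out CLE mouse 3 moved it to -1.31. The exception was Fcgr1, the high-affinity Fc receptor of macrophages, at 0.62 ± 0.72. The summed level of the 12 genes was 5425 to 22402 units in CLE and 2456 to 6651 units in Merkel het CLE. Genes of the type I interferon response differed less: 13 of 15 were negative, with a median of -0.34, or -0.08 relative to all genes. At an unadjusted p under 0.05, 2 of the 15 were lower, near the 16.6% of all tested genes. Leaving out CLE mouse 4 or Merkel het CLE mouse 4 moved that median to 0.02 or 0.04. Tbk1, a kinase downstream of nucleic acid sensors, read 684, 541, 461 and 411 units across the CLE mice and 347, 339, 327 and 338 units across the Merkel het CLE mice. Its groups did not overlap, and the difference was -0.61 ± 0.20 (adjusted p = 0.185). Ifih1, a sensor of double-stranded RNA, differed by -0.88 ± 0.35, Stat2 by -1.26 ± 0.66 and Ifi35 by -0.71 ± 0.42.

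The 250 bases upstream of the first listed start of Tap1, Irf1 and Cxcl10 are shown because these genes lead the antigen display and interferon-gamma groups. They are taken from RefSeq on GRCm38.p6. Capitals mark matches, on either strand, to an interferon-gamma-activated-site-like pattern, TTC and GAA with 3 free bases between them, or to an interferon-response-element-like pattern, GAAA and GAAA with 2 free bases between them.
Tap1, chr17:34187306-34187555, plus strand: 
Irf1, chr11:53769764-53770013, plus strand: 
Cxcl10, chr5:92348890-92349139, minus strand: 
The window of Irf1 holds the first pattern, as TTCCCCGAA starting 90 bases before the start, and that of Cxcl10 holds the second, as GAAAGTGAAA starting 213 bases before it. The window of Tap1 holds neither; it reaches past the start of Psmb9, which lies 226 bases away on the opposite strand. Among all 27025 promoters in the table the first pattern is in 7.18% and the second in 3.04%. Of the 451 tested genes 336 have a promoter in the table, with shares of 9.52% and 5.95%. Of the 12 tested interferon-gamma genes 9 have one; 3 hold the first pattern and 2 the second. Of the 11 tested MHC class I genes 9 have one; 0 hold the first and 1 holds the second. A match describes the letters in the window and nothing about binding.

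T cell markers and T cell receptor signalling genes each had 9 of 12 negative differences, near the 69% of all tested genes, and none of them passed. Cd3e, a signalling chain of the T cell receptor complex, read 61.2, 83.9, 87.99 and 116 units across the CLE mice and 18.6, 49.9, 36.1 and 27.4 units across the Merkel het CLE mice. The diseased groups did not overlap, the littermates at 95.6 to 149.6 units lay higher than Merkel het CLE, and the difference was -1.43 ± 0.34 (adjusted p = 0.063). CLE mouse 1, the lowest CLE value of Cd3e, was below its own background threshold of 106 units. Subtracting the background left -0.47, and the adjusted p of Cd3e ran up to 0.884 over the alternatives other than scaling on the positive controls. Cd3d, its partner chain, read 111, 91.3, 69.8 and 129 units across the CLE mice and 28.6, 71.5, 35.2 and 21.04 units across the Merkel het CLE mice; Merkel het CLE mouse 2 reached into the CLE range, and the difference was -1.45 ± 0.37. Zap70, the kinase recruited to the engaged receptor, read 167, 156, 92.2 and 68.5 units across the CLE mice and 40.8, 59.7, 24.9 and 24.7 units across the Merkel het CLE mice, without overlap, a difference of -1.66 ± 0.39 (adjusted p = 0.063). Cd27, a co-stimulatory receptor, differed by -1.41 ± 0.42 and Cd2, an adhesion receptor, by -1.23 ± 0.39. Lck, the kinase upstream of Zap70, differed by -0.99 ± 0.39, and the phosphatase Ptpn22 by -0.96 ± 0.40. Prkcd, a protein kinase C isoform, read 1835, 2205, 1926 and 1243 units across the CLE mice and 1148, 1042, 1009.6 and 1097 units across the Merkel het CLE mice, a small but even difference of -0.72 ± 0.19 without overlap (adjusted p = 0.0807).

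Of the T cell markers, 5 of the negative differences had an unadjusted p under 0.05. The median was -0.55, or -0.30 relative to all genes, and it was -0.86 without CLE mouse 3. It was 0.07 in the 4 of them that exceeded background in every diseased library. The summed level of the 12 markers was 975 to 3007 units in CLE and 2023 to 3978 units in Merkel het CLE, higher at both ends, although the median difference was below 0. Thy1, a surface protein of T cells and of fibroblasts, read 851, 1264, 203 and 1854 units across the CLE mice and 2636, 1468, 3304 and 1238 units across the Merkel het CLE mice and carries much of that sum; its difference was 1.32 ± 0.57, and 0.66 without CLE mouse 3. Of the T cell receptor signalling genes 5 had an unadjusted p under 0.05, with a median of -0.65, or -0.40 relative to all genes.

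Inhibitory and Th1-associated genes also lay below the panel. Pdcd1lg2 (PD-L2), the other ligand of PD-1, read 106, 91.3, 36.3 and 91.7 units across the CLE mice and 11.4, 17.6, 20.6 and 24.7 units across the Merkel het CLE mice. CLE mouse 3 was far below the other CLE mice and still above all Merkel het CLE mice; the difference was -2.01 ± 0.45 (adjusted p = 0.063). CLE mouse 1 was below its own background threshold for this gene. Ctla4, an inhibitory receptor of activated and regulatory T cells, differed by -1.02 ± 0.38. All 7 tested co-inhibitory genes had negative differences, beside 69% of all tested genes, and none passed. Of the 7, 5 had an unadjusted p under 0.05, beside 16.6% of all tested genes. Their median was -1.02, or -0.77 relative to all genes. After median centring, quantile normalization or background subtraction 6 of 7 were negative. Only 3 of the 7 were above background in all diseased libraries. Cd274, Cd244a and Ctla4 also belong to other lists described here, so this list is not a separate result. In the Th1 group, Il12rb2, the signalling chain of the interleukin-12 receptor, read 22.2, 219.7, 342 and 82.4 units across the CLE mice and 10.02, 42.1, 16.3 and 12.8 units across the Merkel het CLE mice. Littermates read 495 to 685 units, above both diseased groups, and CLE mouse 1 overlapped Merkel het CLE. For Il12rb2 only Merkel het CLE mouse 2 was above background in its group, so the Merkel het CLE level is only a bound. CLE mouse 1 was below its own threshold of 106 units, so its overlap is a reading at background. The measured difference was -2.58 ± 0.71 (limma, adjusted p = 0.0931). Without CLE mouse 1, the lowest of its group, the difference of Il12rb2 was -3.33 with an adjusted p of 0.0261, and leaving out that mouse itself enlarges it.

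Il27, a subunit of a cytokine that acts on early Th1 cells, read 128, 41.97, 34.9 and 47.6 units across the CLE mice and 12.9, 20.6, 12.03 and 14.6 units across the Merkel het CLE mice. It was above background in 3 CLE libraries, 1 littermate and no Merkel het CLE library, so that it was tested chiefly through the group where it is high. With the Merkel het CLE libraries set at their thresholds, the CLE mean of Il27 was 2.42-fold higher. This is not a minimum fold, because CLE mouse 2 was below its own threshold. The measured log2 difference was -1.83 ± 0.43 (limma, adjusted p = 0.063). Il18r1, which binds interleukin-18, differed by -1.31 ± 0.43, and Ebi3, the partner of Il27, by -0.77 ± 0.50. All 8 tested Th1-associated genes had negative differences, with a median of -0.90, or -0.65 relative to all genes; 4 had an unadjusted p under 0.05. Without CLE mouse 1 the median was -0.54, with 7 of 8 negative, and after quantile normalization it was -0.47, with 6 of 8 negative. Only 2 of the 8 were above background in all diseased libraries. The summed level of the 8 genes was 711 to 1634 units in CLE and 292 to 537 units in Merkel het CLE, without overlap, and 1304 to 1589 units in littermates. In CLE mouse 3, the upper end, Il18r1 at 1102 units and Il12rb2 at 342 units made up most of the sum. A score of at least 2 leaves only CLE mice 1 and 4 against all Merkel het CLE mice. Among diseased mice with such a score, the differences of Il18r1 and Il12rb2 were -0.58 and -1.26. Regulatory T cell and interleukin-2 receptor genes had 8 of 11 negative differences, near the 69% of all tested genes. Their median was -0.44, which background subtraction turned to 0.28. It was -0.73 without CLE mouse 3 and -0.23 without Merkel het CLE mouse 4. Ikzf2 (Helios) read 284, 699, 940.0 and 184 units across the CLE mice and 191, 267, 255 and 121 units across the Merkel het CLE mice. Its difference was -1.11 ± 0.46, and -0.20 among diseased mice with a score of at least 2, with littermates at 749 to 898 units. Ikzf4 differed by -0.61 ± 0.49.

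Th2-associated genes, the state in which the transferred cells were cultured, had 10 of 15 negative differences, near the 69% of all tested genes. Their median was -0.27, or -0.02 relative to all genes. Irf4, a transcription factor used by Th2 and other effector T cells, read 111, 175, 92.2 and 104 units across the CLE mice and 46.5, 79.3, 46.4 and 43.9 units across the Merkel het CLE mice, without overlap, a difference of -1.15 ± 0.30 (adjusted p = 0.0807). Ccl24, an eosinophil-attracting chemokine, read 94.5, 205, 64.2 and 70.8 units across the CLE mice and 7.87, 35.2, 35.2 and 49.4 units across the Merkel het CLE mice, without overlap, a difference of -1.82 ± 0.54. For Ccl24, CLE mouse 1 was below its own background threshold of 106 units, and Merkel het CLE mouse 1 was also below background. Gata3, the factor that defines Th2 cells and is also made by keratinocytes, read 1462, 5207, 6059 and 2366 units across the CLE mice and 1329, 2170.5, 2011 and 2148 units across the Merkel het CLE mice. Littermates read 6061 to 6591 units, and CLE mice 2 and 3 were near them; the difference between the diseased groups was -0.78 ± 0.38. Il33, an alarm cytokine of epithelial cells, had a positive difference of 0.98 ± 0.51.

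All 18 tested JAK-STAT genes had negative differences, beside 69% of all tested genes, with a median of -0.36, or -0.10 relative to all genes. At an unadjusted p under 0.05, 4 of the 18 were lower, beside 16.6% of all tested genes. Il6ra, the interleukin-6 receptor, read 1189.9, 2526, 3228 and 748 units across the CLE mice and 688, 577, 657 and 477 units across the Merkel het CLE mice. CLE mouse 4 came close to the Merkel het CLE range without entering it, and the difference was -1.47 ± 0.38 (adjusted p = 0.0776). Littermates read 1594 to 1900 units, and the highest CLE values were those of mice 2 and 3, both with a score of 1. Among diseased mice with a score of at least 2 the difference was -0.67. The feedback inhibitor Cish differed by -0.93 ± 0.34 and Stat5a by -0.58 ± 0.25.

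Among antigen-presenting cells, Batf3, a factor needed by cross-presenting dendritic cells, read 55.6, 76.5, 39.1 and 47.6 units across the CLE mice and 17.9, 31.3, 11.2 and 20.1 units across the Merkel het CLE mice. The groups did not overlap, 1 Merkel het CLE library was above background, and the difference was -1.44 ± 0.37 (adjusted p = 0.0776). CLE mouse 1 was below its own background threshold of 106 units for Batf3, and below its mean negative control of 62.6 units. The part of scaled background in this gap was not tested. Itgax (CD11c) differed by -0.93 ± 0.50 and the plasmacytoid dendritic cell factor Tcf4 by 0.54 ± 0.29. Cd1d1, which presents lipids to NKT cells, read 217, 41.97, 117 and 304 units across the CLE mice and 271, 316, 619 and 211 units across the Merkel het CLE mice, a difference of 1.27 ± 0.56. Of 9 tested Langerhans and dendritic cell genes 7 were negative, with a median of -0.45 that turned to 0.06 after quantile normalization and to 0.33 after background subtraction. MHC class II genes had a median of -0.33, or -0.08 relative to all genes. Of the 11, 9 were negative, beside 69% of all tested genes, and none had an unadjusted p under 0.05. Without CLE mouse 3 the median was -0.63, and without Merkel het CLE mouse 4 it was 0.0042. Their transactivator Ciita differed by -0.45 ± 0.45, H2-Eb1 by -0.61 ± 0.50, H2-DMa by -0.43 ± 0.44 and the co-stimulator Cd86 by -0.35 ± 0.37.

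Of 13 tested B cell genes 10 had negative differences and 5 an unadjusted p under 0.05, with a median of -0.63, or -0.38 relative to all genes. The 6 of them above background in all diseased libraries had a median of -0.28, or -0.08 relative to all genes. Background subtraction gave -0.21, with none at an unadjusted p under 0.05, and without CLE mouse 3 the median was -0.38, or -0.02 relative to all genes. Bcl6, the germinal centre factor, read 200.2, 318, 521 and 209 units across the CLE mice and 177, 191, 196 and 164 units across the Merkel het CLE mice, without overlap, a difference of -0.67 ± 0.30. Tnfrsf13b, a receptor for B cell survival factors, differed by -0.95 ± 0.42, its ligand Tnfsf13b by -0.57 ± 0.36 and the plasma cell factor Xbp1 by 0.25 ± 0.21. Macrophage and monocyte genes were evenly split, 9 of 18 on each side of 0, with a median of -0.01, or 0.24 relative to all genes, and none at an unadjusted p under 0.05. This split rested on the libraries used: 17 of 18 were negative at a score of at least 2 (median -0.60), 16 of 18 without CLE mouse 3 (-0.26), 14 of 18 without Merkel het CLE mouse 3 (-0.39), 4 of 18 without CLE mouse 1 (0.31) and 2 of 18 without Merkel het CLE mouse 4 (0.41). Lilrb4a, an inhibitory myeloid receptor, read 1195, 156, 67.04 and 288 units across the CLE mice and 654, 209.5, 1105 and 254 units across the Merkel het CLE mice, and the ranges overlapped almost entirely. Ccr2, the monocyte chemokine receptor, differed by 0.55 ± 0.61, and the growth factor Csf1 by -0.22 ± 0.27.

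The 12 higher genes with the smallest unadjusted p included inflammatory cytokines and vessel genes, and none passed. Il6, an inflammatory cytokine, read 100.1, 56.8, 19.6 and 25.5 units across the CLE mice and 1564, 83.2, 191 and 102 units across the Merkel het CLE mice. Merkel het CLE mouse 1 was far above the rest, CLE mouse 1 was within the Merkel het CLE range, and the difference was 2.42 ± 0.85 (adjusted p = 0.203). Cxcl1, which attracts neutrophils, read 306, 46.9, 36.3 and 27.9 units across the CLE mice and 2399, 99.9, 310.2 and 141 units across the Merkel het CLE mice. The groups overlapped through CLE mouse 1, and the difference was 2.35 ± 0.95 (adjusted p = 0.209). Pla2g2e, a secreted phospholipase, read 117, 44.4, 47.5 and 42.9 units across the CLE mice and 157, 120.4, 73.9 and 618 units across the Merkel het CLE mice, a difference of 1.57 ± 0.61. Runx1, a transcription factor, differed by 1.05 ± 0.40, the integrin Itgb1 by 0.48 ± 0.21, and C1qbp by 0.55 ± 0.25. Cxcl12, a chemokine of fibroblasts and vessels, read 1079, 459, 1954 and 2093 units across the CLE mice and 5115, 1341, 6187 and 1582 units across the Merkel het CLE mice. Merkel het CLE mice 1 and 3 were high, while mice 2 and 4 lay within the CLE range; the difference was 1.26 ± 0.56. Bax read 245, 202, 149 and 239 units across the CLE mice and 313, 251, 324 and 287 units across the Merkel het CLE mice, the single higher gene without overlap, a difference of 0.51 ± 0.23 (adjusted p = 0.238).

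**Figure D3:**
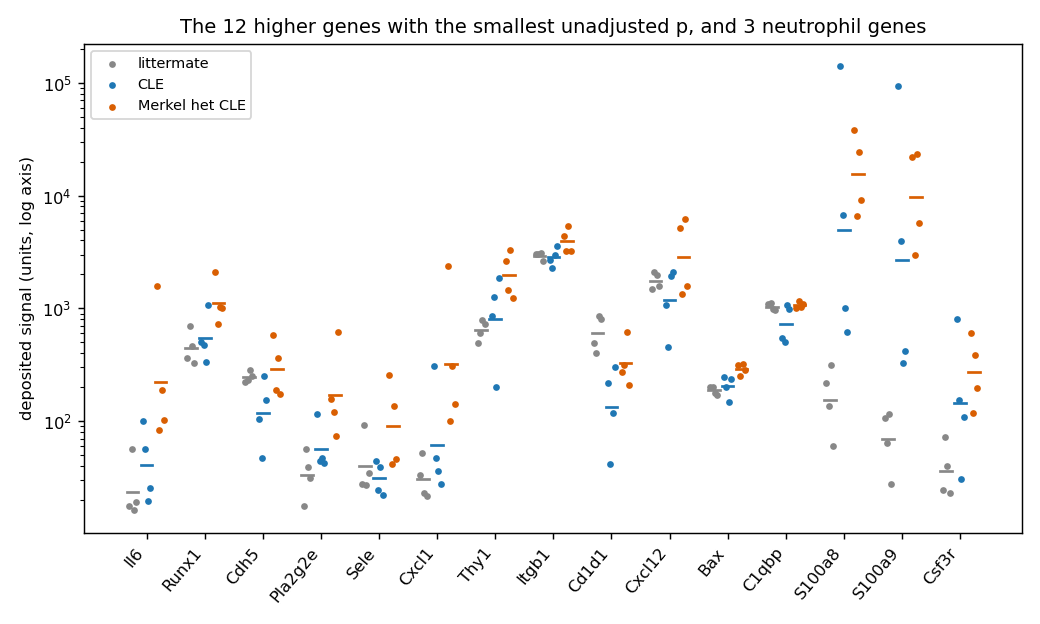
Deposited signal in units on a log axis for the 12 higher genes with the smallest unadjusted p and for S100a8, S100a9 and Csf3r, with 1 point per library and a line at the group mean of log2 values (littermate grey, CLE blue, Merkel het CLE orange, 4 libraries each). Bax is the only one of the 15 whose CLE and Merkel het CLE points do not overlap, and the highest S100a8 and S100a9 points are those of CLE mouse 1.

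Endothelial genes were positive in 5 of 6 cases, with a median difference of 0.71, or 0.96 relative to all genes, and 2 had an unadjusted p under 0.05; the median was 0.35 without CLE mouse 2. Cdh5, the cadherin of vessel junctions, read 106, 46.9, 251 and 154 units across the CLE mice and 587, 188, 364 and 176 units across the Merkel het CLE mice. Sele, the selectin of inflamed endothelium, read 44.5, 24.7, 39.1 and 22.04 units across the CLE mice and 258, 42.1, 136 and 46.6 units across the Merkel het CLE mice. In both genes Merkel het CLE mice 1 and 3 were highest and mice 2 and 4 were close to CLE values; the differences were 1.29 ± 0.50 and 1.52 ± 0.59 (adjusted p = 0.203 for both). Pecam1 differed by 0.91 ± 0.48 and Cd34 by 0.50 ± 0.42. The summed level of the 6 genes was 795 to 2461 units in CLE, 1316 to 4222 units in Merkel het CLE and 2358 to 3162 units in littermates. Merkel het CLE mice 1 and 3 are also the libraries with low positive controls, at geometric means of 410.4 and 404.9 counts against 614 to 1113 in the other 6 diseased libraries; the part of this in the result was not tested.

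All 7 tested neutrophil genes had positive differences, with a median of 0.92, or 1.17 relative to all genes, and the spread within each group was wide. S100a8, a subunit of the neutrophil alarm protein calprotectin, read 139994, 6725, 1011 and 615 units across the CLE mice and 38203, 6581, 24557 and 9149 units across the Merkel het CLE mice. CLE mouse 1 held the highest value of all libraries, CLE mice 3 and 4 the lowest of the diseased, and the difference was 1.65 ± 1.37 (adjusted p = 0.539). S100a9, its partner, read 93820.3, 3945, 331 and 422 units across the CLE mice and 21736, 2970.3, 23527 and 5753 units across the Merkel het CLE mice, a difference of 1.85 ± 1.47. Csf3r, through which granulocyte colony-stimulating factor acts, differed by 0.92 ± 0.84. Of the 7 genes, 1 (Cxcl1) had an unadjusted p under 0.05 and 2 were above background in all 8 libraries. Among diseased mice with a score of at least 2, which leaves CLE mice 1 and 4 against all Merkel het CLE mice, the median was -0.06. It was 0.19 without CLE mouse 3, 1.74 without CLE mouse 1 and 3.06 without CLE mice 1 and 2. That last fit was chosen after seeing the data. It leaves out the 2 CLE mice with the highest S100a8 and S100a9 and keeps only CLE mice 3 and 4, the lowest. S100a8 and S100a9 passed in it, at 4.29 and 4.69 (limma, adjusted p = 0.0369 for both). Because the choice of mice itself raises these differences, no conclusion is drawn from the 2 calls.

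**Figure D4:**
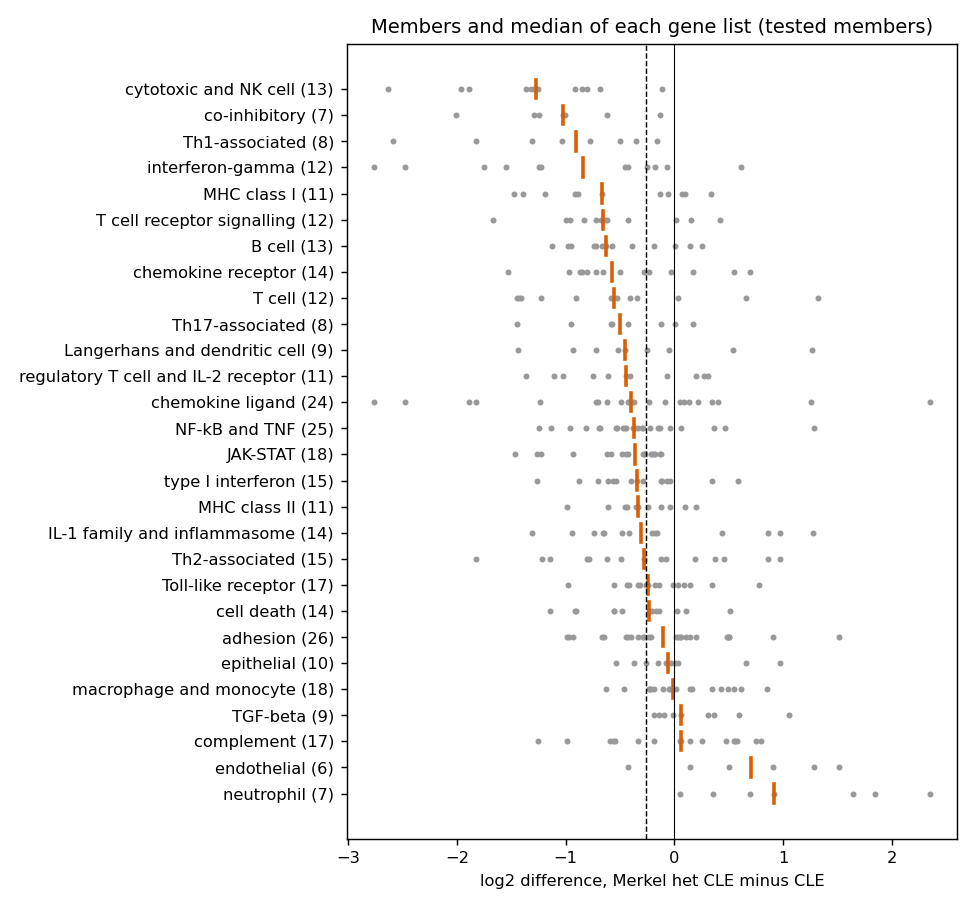
Log2 differences (Merkel het CLE minus CLE, horizontal axis) of the tested members of each gene list with at least 3 of them, with the number tested in brackets; grey points are genes, orange bars list medians, and the dashed line the median of all tested genes at -0.26. The medians run from -1.27 for cytotoxic and NK cell genes to 0.92 for neutrophil genes.

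The remaining lists are given beside the 69% of all tested genes that lay below 0; a count near that share says nothing about a list. Epithelial genes had 6 of 10 negative and a median of -0.06. Their members Defb1, an antimicrobial peptide, Notch2 and Cd24a differed by -0.53 ± 0.36, -0.37 ± 0.18 and -0.26 ± 0.29. Chemokine ligands had a median of -0.39 with 16 of 24 negative, a list that holds both Cxcl10 and Cxcl1, and chemokine receptors -0.58 with 11 of 14 negative. Of 25 NF-kB and TNF genes 21 were negative, with a median of -0.37. Toll-like receptor genes (12 of 17 negative) had a median of -0.24, interleukin-1 family genes (10 of 14) of -0.31 and cell death genes (11 of 14) of -0.23. Th17-associated genes (6 of 8 negative) had a median of -0.50 and adhesion genes (13 of 26) of -0.10, while complement genes (7 of 17) and TGF-beta genes (4 of 9) both stood at 0.06. The 2 tested mast cell genes differed by -0.04 and 0.50. None of the members of these lists passed. Of the Merkel cell list only Ncam1, a neural adhesion molecule, was tested, at 0.49, so the loss of Merkel cells was not checked by these data. Tlr9 read 156, 34.6, 40.5 and 42.9 units across the CLE mice and 55.8, 39.2, 46.4 and 27.4 units across the Merkel het CLE mice, overlapping and with a difference of -0.43 ± 0.56, and it does not separate the TLR9 labels.

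In the interferon-gamma list CLE mouse 3, which had a score of 1, was the lowest CLE library, with levels near the littermates. The far library differed between lists: CLE mouse 1 was the highest CLE library for neutrophil genes, and CLE mouse 2 the lowest for endothelial genes. CLE mouse 3 was also the lowest CLE mouse for Cxcl10, Gzma, Irf1 and Cd274, so leaving it out enlarges their differences. Without CLE mouse 3, 28 genes were lower and 0 higher at an adjusted p under 0.05 (limma). They included Cxcl10 at -3.87, Gzma at -3.18, Irf1 at -2.01 and Cd274 at -1.79, with adjusted p-values of 0.000432, 0.00397, 0.00515 and 0.00295. Of the lists, 5 of 13 cytotoxic and NK cell genes, 5 of 12 interferon-gamma genes and 4 of 11 MHC class I genes were then among the 28, which are 6.21% of all tested genes. CLE mouse 3 had the lowest mean level of the CLE mice in each of these lists. Such counts therefore follow in part from which library was left out and are not separate evidence. Of the 30 lists, 16 held none of the 28, among them the B cell, macrophage and monocyte, neutrophil, endothelial, and NF-kB and TNF lists. Leaving out another library gave 2 genes without CLE mouse 1, 0 without CLE mouse 2 and 7 without CLE mouse 4. Without Merkel het CLE mouse 2 there were 7, and without mouse 1, 3 or 4 there were 0. CLE mouse 2 also had a score of 1, and with the score as a covariate 0 genes passed and 47 were lower at an unadjusted p under 0.05. Among TLR9 ko/ko libraries alone, 2 Merkel het CLE against 4 CLE, 0 genes passed, 43 were lower and 2 higher at an unadjusted p under 0.05. The cytotoxic and interferon-gamma medians were then -1.38 and -1.19.

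**Figure D5:**
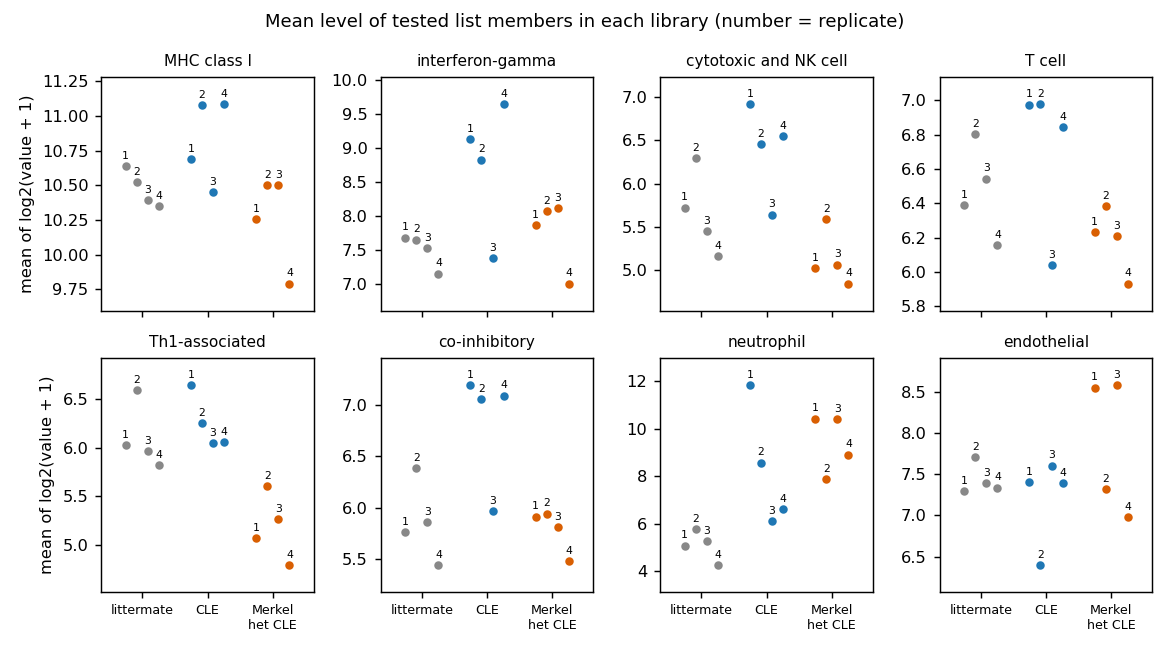
Mean of log2(value + 1) over the tested members of 8 gene lists in each library, with the replicate number beside each point (littermate grey, CLE blue, Merkel het CLE orange, 4 libraries each; each panel has its own vertical axis). CLE mouse 3 is the lowest CLE library in the interferon-gamma, cytotoxic and T cell panels, and Merkel het CLE mice 1 and 3 are the highest in the endothelial panel.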

How the data were processed

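Gene values are deposited as a signal that equals whole barcode counts times 1 factor per lane: 100% of values above the floor of 1 lie within 0.02 units of a whole multiple of 1 step. The factors' origin was not given in the sources used here. Control probes are deposited as raw counts. Gene names came from RefSeq GRCm38.p6 (549 of 561 probes matched). A gene was tested when at least 4 of 12 libraries had a count above background, taken as 2 SD over the mean of the 8 negative controls in that lane; 98 did not, and the 12 reference genes were not tested.

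Differences on log2(value + 1) entered limma 3.58.1 in R 4.3.3. There was 1 fit of 3 group means over 12 libraries, with a variance trend and Benjamini-Hochberg adjustment over 451 genes at 0.05. The added 1 shrinks changes of low genes. Probes below background still had a median difference of -0.89, so negative differences of low genes are not conservative. Errors are moderated SEs. They pool the spread of all 3 groups, which was unequal. Array weights, which are higher for libraries closer to their group mean, were 3.22, 4.07 and 2.95 for littermates 1, 3 and 4. They were 0.27 to 0.87 in CLE, so the SEs can understate the spread between diseased mice. In the 8 diseased libraries alone, limma gave 52 lower genes at an unadjusted p under 0.05, against 75 in the analysis reported. The fit was tested on simulated data. Positive control, background, filter, pseudocount, variance, genotype, score, title number and library alternatives were run. Tables used Python 3.11.15.

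The comparison and the gene lists were chosen with earlier results of these data known. The text names genes past the threshold; the 12 lower and 12 higher genes with the smallest unadjusted p above background in at least 3 of 4 libraries of the higher group; up to 4 such members of each list described, by unadjusted p; and Tlr9. One gene that this rule names is not reported here. The series description calls all mice TLR9-deficient and Merkel cells lost, and the sample labels, followed here, differ. Nothing shows whether same-group mice were littermates, so p-values measure the spread between these mice.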

Additional observations from a re-analysis of the deposited data

Results flagged for a closer look

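In 10 of 166 checks, each of 1 diseased group for a named gene or a lane measure, 1 library stood far from the other 3 of its group on the log2 scale. Chance alone gives about 5% of groups. CLE mouse 3 was the far library, always on the low side, for Cxcl10 at 131 units, Ifi35 at 296 units, Itgax at 54.5 units and Pdcd1lg2 at 36.3 units. CLE mouse 1, whose scaled background was highest, was far on the high side for Pla2g2e at 117 units, Csf1 at 873 units and Tlr9 at 156 units. Merkel het CLE mouse 2 was high for Lck at 109.7 units and for Irf4 at 79.3 units, and Merkel het CLE mouse 1 was low for Gata3 at 1329 units.

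Among the 98 probes below the filter, 4 were above background in at least 3 diseased libraries and in no littermate. Their highest values were 122 units for the activation marker Cd69, 44.5 units for the lymph node homing receptor Ccr7 and 172 units for the antimicrobial peptide Camp, all in CLE mouse 1, and 47.6 units for the interleukin-21 receptor Il21r in CLE mouse 4. These genes were not tested.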

How the results depend on the processing

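The count of genes past an adjusted p under 0.05, 1 in the analysis reported, moved with most alternatives, all calls being lower in Merkel het CLE unless stated. It was 7 after rescaling on the reference genes, 8 with no variance trend and 8 with a score of at least 2. It was 0 after median centring, quantile normalization or background subtraction, with no filter, with the filter of background in all 8 diseased libraries, with array weights, in the 8 diseased libraries alone, in TLR9 ko/ko libraries alone, with TLR9 alleles or score as a covariate, and with 1 mean library per title number. In these fits with 0 calls, limma gave 35 to 105 lower and 1 to 33 higher genes at an unadjusted p under 0.05. Pseudocount 16, robust moderation and the title number as a random block (consensus correlation 0.213) left 1. Scaling on the positive controls gave 15, all higher, and turned the sign of 45 of 78 named genes. Leaving out 1 library gave 0 to 28. Chosen after seeing the data, leaving out littermate 2 and CLE mouse 1 gave 3, and leaving out CLE mice 1 and 2 gave 3 higher genes, Il19, S100a8 and S100a9.

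Of 2160 values of named genes over 28 alternatives, with the shift of all genes removed under positive control scaling, 2065 kept direction and side of the threshold, 64 passed newly, 17 no longer passed and 14 reversed. B2m was 0.73 after quantile normalization. Without CLE mice 1 and 2, Ikzf4 was 0.025, Tnfsf13b 0.0038, Cd34 -0.16 and Cd24a 0.32. At a score of at least 2, Gata3 was 0.0145, Lilrb4a -0.40, Fcgr1 -0.45 and Csf3r -0.12. Tlr9 was 0.0812 after background subtraction and 0.0599 without littermate 2 and CLE mouse 1. Leaving out 1 library gave -0.079 to 0.96 for Ccr2, -0.39 to 0.0361 for Csf1 and -0.65 to 0.0599 for Tlr9. Of 868 medians of lists and of all genes, with that shift likewise removed from the lists, 836 moved by less than the SD between libraries. The cause was not tested.

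No paired analysis was possible because CLE and Merkel het CLE share no title number and replicate numbers only follow sample order. The planned edgeR and DESeq2 fits were not run, and limma on log2 values was used throughout. Low counts limit genes near background in CLE mice 1 and 2, and the number of mice limits all comparisons.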
